A study of Homo sapiens with 6 samples.

Results

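A set of 10 polyamine metabolism genes was followed in ACHN cells treated with curcumol and in control ACHN cells. They are ODC1, AMD1, SRM, SMS, SAT1, SMOX, PAOX, OAZ1, OAZ2 and AZIN1, taken by gene symbol from a table of raw counts that lists 58735 genes, and all 10 were found. ACHN is an established human renal carcinoma line, labelled by the submitters as clear cell carcinoma of wild-type genotype. The treated group held 3 libraries of cells given curcumol, a sesquiterpenoid of Curcuma rhizome oil, and the control group held 3 libraries. Its sample labels name a vehicle, whereas the design text of the series speaks of no drug treatment. Neither dose nor duration is stated there. The libraries are poly(A)-selected RNA-seq of separate biological replicates, per the labels, and held 16962012 to 17827433 counts each.

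Polyamines are small organic cations that bind nucleic acids and support translation and growth. ODC1 makes putrescine from ornithine, AMD1 makes the aminopropyl donor, and the synthases SRM and SMS use that donor to build spermidine and then spermine. SAT1 acetylates spermidine and spermine for export or for oxidation by PAOX, while SMOX oxidises spermine directly and releases hydrogen peroxide. The antizymes OAZ1 and OAZ2 bind ODC1 protein, deliver it to the proteasome without ubiquitin and restrain polyamine uptake, and AZIN1 is an inactive relative of ODC1 that captures antizyme. Much of this control acts on translation and protein stability, which mRNA counts do not show.

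Curcumol-treated cells had less mRNA of both aminopropyl transfer enzymes, SRM and SMS, and of the oxidase PAOX, and more mRNA of the other 7 genes, with SAT1 rising most. Of the 10 genes 7 were higher and 3 were lower by edgeR's quasi-likelihood test at an adjusted p under 0.05. In the same test 39.4% of the 15160 genes tested were higher, 40.3% were lower and 79.7% were called in either direction, so a call by itself sets none of the 10 apart. All 10 genes passed the filter on low counts. Levels are given as CPM, counts scaled to a common library size with TMM factors, and fold changes are curcumol over control. The median log2 fold change of the 10 was 0.96, and that of all tested genes was -0.02. For each of the 10 genes the curcumol and control libraries did not overlap, as for 81% of all tested genes (39.8% with curcumol higher and 41.1% with curcumol lower). The difference reached 2-fold for 7 of the 10 and 4-fold for 3. Such sizes were common among all tested genes. Near 2-fold, 21.7% of them rose by more than 0.99 on the log2 scale and 22.1% fell beyond -1.05. Near 4-fold, 6.64% rose by more than 2.20 and 7.67% fell beyond -2.06.

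**Figure D1:**
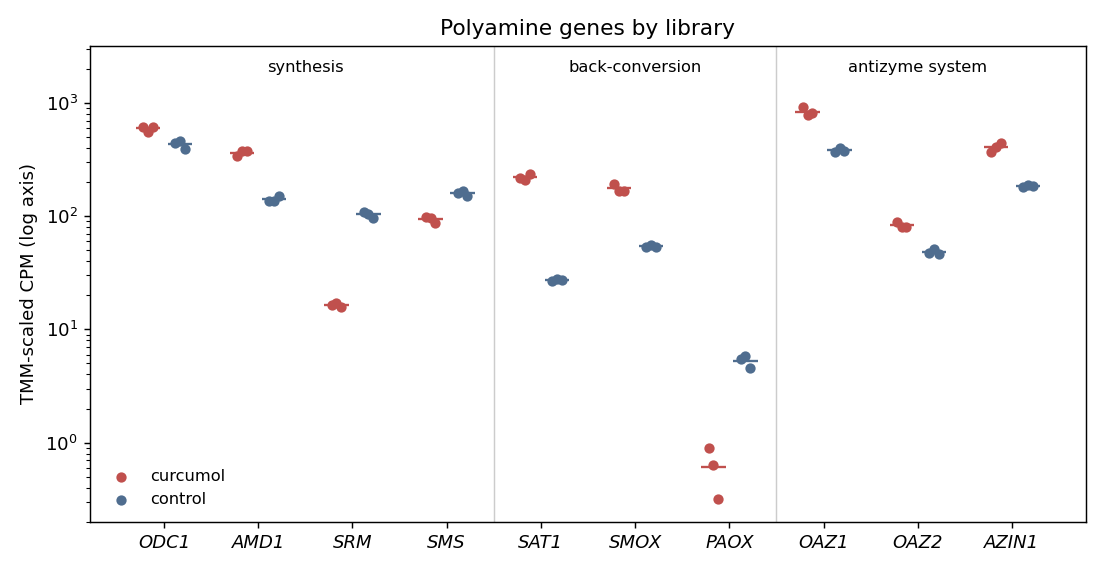
Level of the 10 polyamine genes in each library, in TMM-scaled CPM on a log axis, with curcumol libraries in red, control libraries in blue and a bar at each group's mean. SAT1 sits between 210.0 and 236 CPM in curcumol and between 26.6 and 28.0 CPM in control, while SRM sits between 15.7 and 17.1 CPM in curcumol and between 96.9 and 110.1 CPM in control.

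The 250 bases before the annotated start of SAT1 and of SRM are shown because, among the genes with a listed promoter, these moved furthest up and furthest down. They are RefSeq sequences of GRCh38.p14, SAT1 at chrX:23782923-23783172 on the plus strand and SRM at chr1:11060019-11060268 on the minus strand. Capitals mark the E-box CACGTG, bound by MYC and MAX, and the CCAAT box, which reads ATTGG on the other strand.
SAT1: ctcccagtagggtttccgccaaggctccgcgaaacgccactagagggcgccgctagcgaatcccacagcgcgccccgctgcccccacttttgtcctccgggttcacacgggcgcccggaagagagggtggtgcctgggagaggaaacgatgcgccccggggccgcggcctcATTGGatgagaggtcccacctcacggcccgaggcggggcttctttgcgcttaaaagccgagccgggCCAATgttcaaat
SRM: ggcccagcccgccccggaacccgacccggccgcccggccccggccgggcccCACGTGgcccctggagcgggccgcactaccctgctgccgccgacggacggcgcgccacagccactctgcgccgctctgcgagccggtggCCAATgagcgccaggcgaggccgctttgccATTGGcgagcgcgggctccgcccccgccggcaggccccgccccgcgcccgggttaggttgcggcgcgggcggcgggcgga

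Listed promoters were matched for 7 of the 10 genes, in 10 windows because ODC1 and AMD1 have several listed starts. CACGTG begins 199 bases before the start of SRM and 29 bases before the downstream one of the ODC1 starts, and is found in 6.35% of the 35116 windows of this length. A CCAAT box on either strand was found for SRM, SMS, SAT1, OAZ1 and AMD1, and in 32% of all windows. For AMD1 the match lay in the window at chr6:110814367-110814616, far upstream of the gene start given below, and the windows at that start held none. The AP-1 motif TGANTCA was found for OAZ2 alone of the 7, and in 6.57% of all windows. The 7 genes held no antioxidant response element core TGACNNNGC, heat shock core GAANNTTC, ATF4 core TGATGNAA or CRE TGACGTCA in these windows, against 10.9%, 5.78%, 3.14% and 1.65% of all windows. Both strands were searched, and the matches shown do not overlap each other. SRM and ODC1, the genes with an E-box, moved in opposite directions.

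Of the enzymes of synthesis, ODC1 and AMD1 rose while SRM and SMS fell. ODC1 (ENSG00000115758, chromosome 2, 10439968 to 10448504, minus strand) had 620.4, 559 and 615 CPM in curcumol replicates 1 to 3 and 441, 466 and 396 CPM in control replicates 1 to 3. The lowest curcumol library stood above the highest control library, by a small margin relative to the other members. This gave a log2 fold change of 0.46 with an SE of 0.06 (edgeR adjusted p = 8.35e-07), the smallest in size of the 10, and 5355 of the 15160 tested genes rose more. With scaling by library totals in place of TMM its log2 fold change was 0.20 (edgeR adjusted p = 0.00518).

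AMD1, which decarboxylates S-adenosylmethionine (ENSG00000123505, chromosome 6, 110874770 to 110895713, plus strand), had 342, 376 and 377 CPM in curcumol libraries and 136.5, 136 and 151.5 CPM in control libraries. All curcumol libraries stood more than 2-fold above every control library. AMD1 rose by 1.37 ± 0.06 on the log2 scale (SE, edgeR adjusted p = 1.3e-14). With an offset for GC content it was 0.76, and the gene has a GC content of 37.7%.

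SRM, spermidine synthase (ENSG00000116649, chromosome 1, 11054584 to 11060024, minus strand), had 16.4, 17.1 and 15.7 CPM in curcumol libraries and 110.1, 105 and 96.9 CPM in control libraries. The curcumol libraries were close together and far below all control libraries. In counts, these were 256, 273 and 248 in curcumol and 2047, 2031 and 1877 in control. On the log2 scale SRM changed by -2.66 ± 0.08 (SE, edgeR adjusted p = 3.16e-17), and 550 tested genes fell further. With a GC offset it was -1.94.

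SMS, spermine synthase (ENSG00000102172, chromosome X, 21940573 to 21994835, plus strand), had 98.7, 95.7 and 86.6 CPM in curcumol libraries and 159, 169 and 150.4 CPM in control libraries. It fell less than SRM, with a log2 value of -0.77 ± 0.07 (SE, edgeR adjusted p = 9.47e-10). The processed pseudogenes of SRM held 0 counts, and those of AMD1 held 1 count in curcumol and 2 in control, over all libraries.

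Of the enzymes that turn spermine and spermidine back, SAT1 and SMOX rose and PAOX fell. SAT1, spermidine/spermine acetyltransferase (ENSG00000130066, chromosome X, 23783173 to 23786226, plus strand), had 219.6, 210.0 and 236 CPM in curcumol libraries and 26.6, 28.0 and 27.5 CPM in control libraries. Control libraries differed little among themselves, and each curcumol library held several times their level. SAT1 rose by 3.02 ± 0.07 on the log2 scale (SE, edgeR adjusted p = 3.31e-19), and 538 tested genes, or 3.55%, rose more. Over the 16 alternatives run it stayed between 2.71 and 3.06.

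SMOX, spermine oxidase (ENSG00000088826, chromosome 20, 4120980 to 4187747, plus strand), had 195, 168 and 166 CPM in curcumol libraries and 53.9, 55.9 and 53.0 CPM in control libraries. Curcumol replicate 1 was the highest, and the groups did not overlap. Its log2 rise was 1.70 ± 0.07 (SE, edgeR adjusted p = 3.83e-15), or 2.32 with a GC offset.

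PAOX, the peroxisomal oxidase of acetylated polyamines (ENSG00000148832, chromosome 10, 133379234 to 133391694, plus strand), was the least abundant of the 10. It had 14, 10 and 5 counts in curcumol libraries and 102, 113 and 89 counts in control libraries. The curcumol libraries were all far below the control libraries, and at these counts their spread is partly counting error. On the log2 scale PAOX changed by -3.10 ± 0.30 (SE, edgeR adjusted p = 3.89e-09), the widest error of the 10, and -2.40 with a GC offset. Among tested genes 315, or 2.08%, had a larger fall.

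The antizyme genes and the antizyme inhibitor rose together. OAZ1 (ENSG00000104904, chromosome 19, 2269509 to 2273490, plus strand) had 920.1, 783 and 818.5 CPM in curcumol libraries and 373, 401 and 375.5 CPM in control libraries. Curcumol replicate 1 stood above the other curcumol libraries, and all 3 were far above the control libraries. OAZ1 rose by 1.13 ± 0.06 on the log2 scale (SE, edgeR adjusted p = 3.16e-13), or 1.77 with a GC offset.

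OAZ2, a less abundant antizyme (ENSG00000180304, chromosome 15, 64687573 to 64703281, minus strand), had 89.6, 80.2 and 80.9 CPM in curcumol libraries and 47.6, 51.8 and 46.5 CPM in control libraries. Its groups did not overlap, and it rose by 0.78 ± 0.08 on the log2 scale (SE, edgeR adjusted p = 3.83e-09). AZIN1 (ENSG00000155096, chromosome 8, 102826357 to 102893864, minus strand) had 372, 406 and 445 CPM in curcumol libraries and 181, 189.8 and 186 CPM in control libraries. The curcumol libraries spread more widely than the control libraries and all lay above them. AZIN1 rose by 1.13 ± 0.06 on the log2 scale (SE, edgeR adjusted p = 4.44e-13).

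Exons of OAZ1 share 236 bases with JSRP1 on the other strand, those of AZIN1 share 344 with AZIN1-AS1 on the other strand, and those of PAOX share 158 with AL360181.3 on the same strand. Whether strand was used in counting is not known, and reads of these bases may belong to either gene. JSRP1 held 138 counts in curcumol and 283 in control over 3 libraries each, AZIN1-AS1 held 21 and 48, and AL360181.3 held 2 and 1, each far fewer than the member it overlaps.

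**Figure D2:**
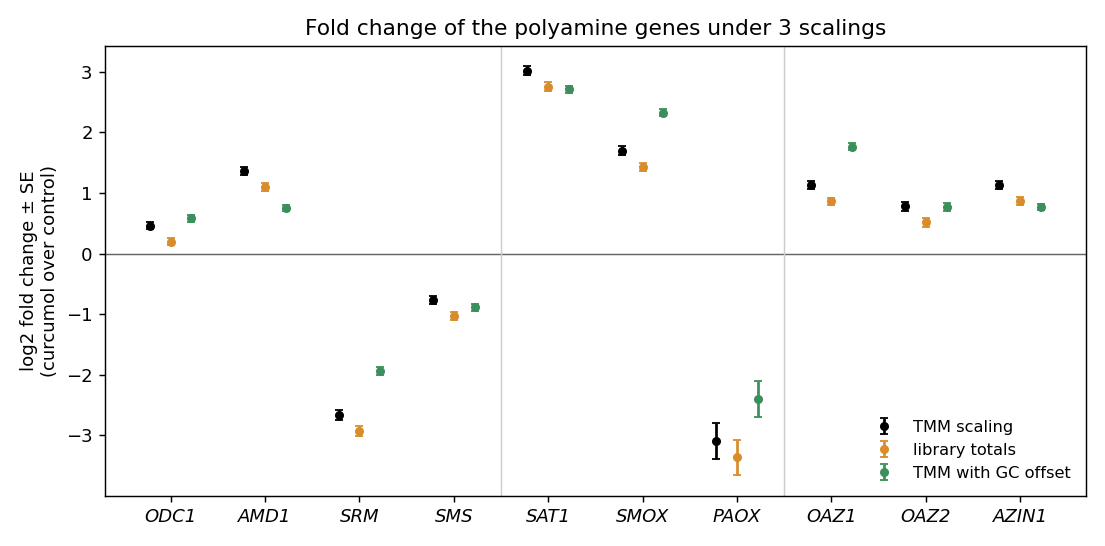
Log2 fold change of curcumol over control with its standard error for each of the 10 genes, with TMM scaling (black), library totals (orange) and TMM with an offset for GC content (green). Every gene keeps its direction, SRM stands at -2.66, -2.93 and -1.94, and SMOX at 1.70, 1.43 and 2.32.

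The GC content of genes moved with the fold change across the transcriptome (Spearman rho -0.34 across genes, which are not independent replicates). Among the members the GC-rich genes went both ways. SRM (63.7% GC) and PAOX (63.3%) fell, while OAZ1 (61.2%) and SMOX (61.0%) rose. The GC offset made the falls of SRM and PAOX smaller and the rises of OAZ1 and SMOX larger. All 10 calls and directions were the same in each of the 16 alternatives run, which include DESeq2, limma-voom and the omission of each library in turn.

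The order of the 10 genes by level was different in treated cells. Places within a group depend on the lengths used, which join the exons of all annotated transcripts. In CPM per kilobase of joined exons, the curcumol means were 245 for OAZ1, 202 for ODC1, 88.8 for SAT1, 63.4 for AZIN1, 59.8 for SMOX, 51.9 for AMD1, 43.4 for SMS, 10.9 for OAZ2, 8.64 for SRM and 0.269 for PAOX. On the same scale the control means were 146 for ODC1, 111.5 for OAZ1, 73.8 for SMS, 54.8 for SRM, 28.9 for AZIN1, 20.1 for AMD1, 18.4 for SMOX, 10.95 for SAT1, 6.34 for OAZ2 and 2.33 for PAOX. SAT1 stood in place 3 in curcumol and place 8 in control, and SRM in place 9 in curcumol and place 4 in control. Neighbours in these orders did not overlap between libraries, except AZIN1 and SMOX in curcumol, which ran from 57.8 to 69.2 and from 56.3 to 66.1.

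Ratios between members within a library do not depend on how libraries are scaled to each other, but those given here are not adjusted for GC content. They were computed for 10 pairs chosen after the counts were seen, per base of joined exons, and are given without a test. The ratio of SAT1 to SRM was 10.2, 9.31 and 11.4 in curcumol libraries and 0.183, 0.203 and 0.215 in control libraries. The acetylating enzyme thus had several times the mRNA of spermidine synthase in each treated library and a fraction of it in each control library. The ratio of SMOX to SMS, the enzymes that oxidise and make spermine, was 1.38 ± 0.08 in curcumol and 0.25 ± 0.01 in control (SD, n = 3 each).

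The ratio of OAZ1 to ODC1 was 1.28, 1.21 and 1.15 in curcumol libraries and 0.732, 0.744 and 0.819 in control libraries. Per base of joined exons, OAZ1 stood above ODC1 in each curcumol library and below it in each control library. These lengths, 3436 bases for OAZ1 and 2968 for ODC1, join the exons of all annotated transcripts. They can exceed the mRNA made, so which mRNA was more abundant is not settled. The ratio of AZIN1 to ODC1 was 0.277, 0.335 and 0.334 in curcumol libraries and 0.19, 0.188 and 0.217 in control libraries. The ratio of OAZ1 to AZIN1 was 4.63, 3.61 and 3.44 in curcumol libraries and 3.85, 3.95 and 3.78 in control libraries, and here the groups overlapped. With a GC offset, however, OAZ1 rose by 1.77, AZIN1 by 0.76 and ODC1 by 0.58 on the log2 scale. The rises of AZIN1 and ODC1 were then closer to each other than without the offset, at 1.13 and 0.46. For the other 9 ratios the groups did not overlap, as for 81% of all tested genes taken singly. The share over all pairs of genes was not computed.

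**Figure D3:**
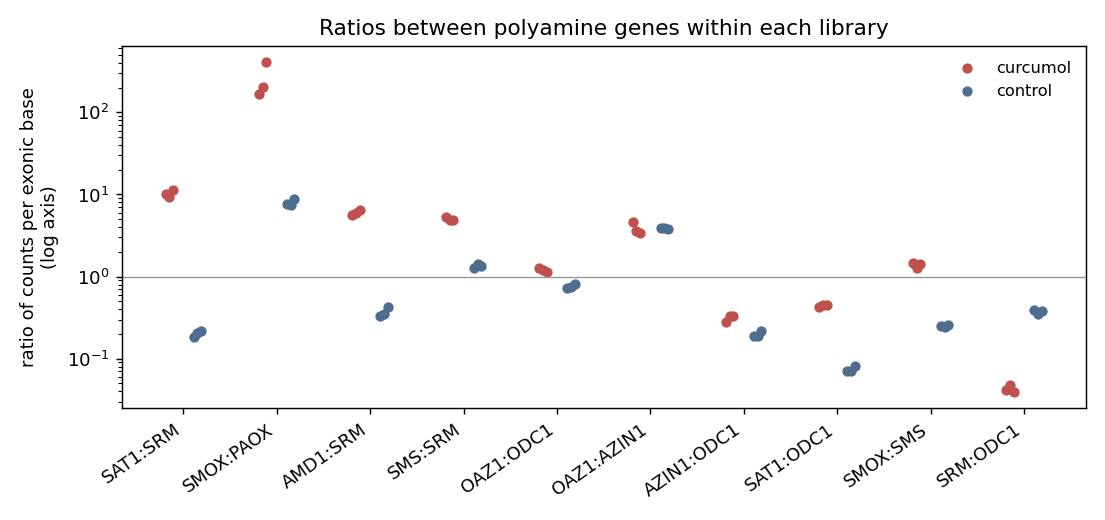
Ratios of counts per exonic base between pairs of polyamine genes within each library, on a log axis, with curcumol libraries in red and control libraries in blue. The SAT1 to SRM ratio lies between 9.31 and 11.4 in curcumol and between 0.183 and 0.215 in control, while OAZ1 to AZIN1 overlaps between the groups.

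Genes around the pathway were read from 6 lists of 41 genes, of which 30 could be tested. Of these 14 were higher, 12 were lower and 4 did not pass, with a median log2 fold change of 0.13. With library totals 11 were higher and 14 were lower. Across all genes the shares were those given above, 39.4% higher and 40.3% lower.

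Supply of ornithine and arginine held 1 gene that rose and 3 that fell of 5 tested. OAT, ornithine aminotransferase, which links ornithine to glutamate and proline, averaged 235 ± 4.88 CPM in curcumol and 78.0 ± 2.90 CPM in control (SD, n = 3 each), a log2 fold change of 1.59 (edgeR adjusted p = 6.61e-16). ASL, argininosuccinate lyase, averaged 6.40 ± 0.43 CPM in curcumol and 35.5 ± 3.46 CPM in control (SD, n = 3 each), a log2 fold change of -2.47. ASS1, which acts before ASL in arginine synthesis, fell by 1.12 on the log2 scale from low counts. AGMAT, annotated as agmatinase, fell by 3.34, with 20, 17 and 11 counts in curcumol libraries and 199, 200 and 193 in control libraries. The arginase ARG1 had too few counts to be tested, with 8, 6 and 5 in curcumol libraries and 1, 3 and 2 in control libraries. The arginase ARG2, named after its value was seen, did not pass (0.37, edgeR adjusted p = 0.315). It had 24, 22 and 30 counts in curcumol libraries and 23, 29 and 19 in control libraries. ARG2 shares 904 exonic bases with VTI1B on the other strand, which held 1336 counts in curcumol and 3453 in control.

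The methionine cycle supplies the substrate of AMD1, and its salvage branch recovers the methylthioadenosine that SRM and SMS release. Of 7 tested genes 4 rose and 3 fell, but 2 were higher and 3 lower with library totals, and 1 was higher and 4 lower with a GC offset. ADI1, a dioxygenase of salvage, rose by 1.69 ± 0.07 on the log2 scale (SE, edgeR adjusted p = 2.24e-15), and MRI1, the isomerase of an earlier step, fell by 1.31. MAT2A, which makes S-adenosylmethionine, averaged 199.6 ± 13.5 CPM in curcumol and 373 ± 6.03 CPM in control (SD, n = 3 each), a log2 fold change of -0.90 (edgeR adjusted p = 6e-12). AHCY, which clears S-adenosylhomocysteine, changed by -0.73, or -0.33 with a GC offset. APIP, a dehydratase of salvage, rose by 0.46 and lost its call with library totals (0.20, edgeR adjusted p = 0.083) and with a GC offset (0.07, edgeR adjusted p = 0.53). APIP shares 259 exonic bases with PDHX on the other strand, which held 3549 counts in curcumol and 1666 in control. MRI1 shares 115 with C19orf53 on the same strand, which held 1968 counts in curcumol and 2371 in control. MAT1A, the liver form, had 0 counts in curcumol and 1, 1 and 2 in control.

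MTAP, the phosphorylase that opens methylthioadenosine salvage (ENSG00000099810, chromosome 9, 21802543 to 21937651), had 0 counts in each of the 6 libraries. With 104414542 counts in all, a count of 0 allows a level of up to 0.0287 CPM, for counting error only. MTAP, MAT2A, AHCY and APIP were named after their values were seen.

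**Figure D4:**
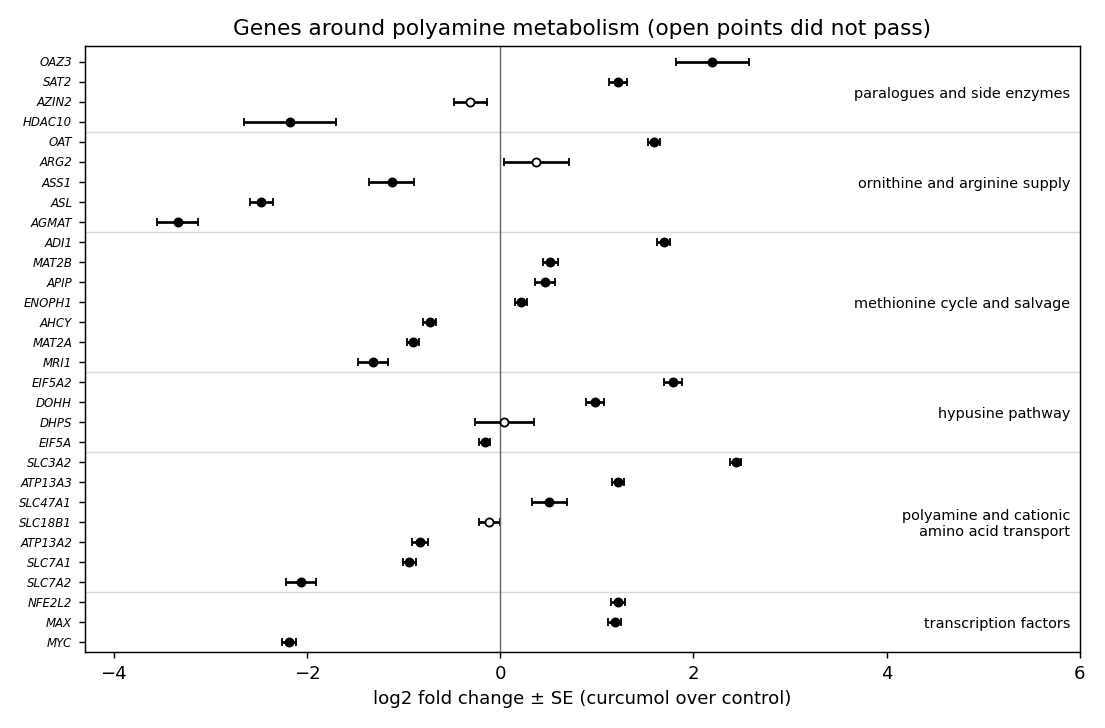
Log2 fold change of curcumol over control with its standard error for the 30 tested genes of the 6 lists around polyamine metabolism, with open points for the 4 that did not pass. SLC3A2 stands furthest right at 2.44 and AGMAT furthest left at -3.34.

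In the transport list 3 of 7 tested genes rose and 3 fell, or 2 and 4 with library totals. SLC3A2, the heavy chain of amino acid exchangers and also reported to take part in polyamine transport, averaged 1648 ± 64.9 CPM in curcumol and 304 ± 13.7 CPM in control (SD, n = 3 each), a log2 fold change of 2.44 (edgeR adjusted p = 5.15e-19). ATP13A3, a membrane pump that imports polyamines, rose by 1.22 ± 0.06 (SE), or 0.59 with a GC offset. ATP13A2, the lysosomal polyamine exporter, changed by -0.83 ± 0.08 (SE, edgeR adjusted p = 5.4e-09), a call lost with a GC offset (-0.09, edgeR adjusted p = 0.277). The cationic amino acid transporters SLC7A2 (-2.06) and SLC7A1 (-0.94), the second named after its value was seen, fell. SLC47A1 and SLC18B1 were also named after their values were seen. SLC47A1, an organic cation exporter, rose by 0.51 (edgeR adjusted p = 0.0137), a call lost with library totals (edgeR adjusted p = 0.22), without curcumol replicate 2 (0.118) and without control replicate 1 (0.099). SLC18B1, a vesicular polyamine transporter, stood at -0.11 and did not pass, but was called lower with library totals (-0.38) and with the offset for GC content (-0.54).

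In the hypusine pathway spermidine is used to modify EIF5A. EIF5A averaged 800.9 ± 54.5 CPM in curcumol and 894 ± 37.4 CPM in control (SD, n = 3 each), and the groups overlapped. Its log2 fold change of -0.16 (edgeR adjusted p = 0.0176) turned to 0.30 with a GC offset. With that offset EIF5A was called higher (edgeR adjusted p = 2.87e-06). Its relative EIF5A2 rose by 1.79 ± 0.09 (SE, edgeR adjusted p = 1.61e-13), or 1.05 with a GC offset. The enzymes DOHH and DHPS were named after their values were seen. DOHH rose by 0.99 ± 0.09 (SE), or 1.82 with a GC offset. DHPS, with 30, 48 and 28 counts in curcumol libraries and 55, 27 and 42 in control libraries, did not pass (edgeR adjusted p = 0.897). It shares 1157 exonic bases with AC010422.8 on the same strand, which held 87 counts in curcumol and 55 in control. It also shares 116 with WDR83 on the other strand, which held 276 counts in curcumol and 145 in control.

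Of 4 tested paralogues and side enzymes 2 rose and 1 fell. SAT2, a paralogue of SAT1, rose by 1.22 ± 0.09 (SE, edgeR adjusted p = 7.15e-11). OAZ3, an antizyme known from testis, had 53, 58 and 38 counts in curcumol libraries and 15, 20 and 4 in control libraries, a log2 fold change of 2.20, and shares 333 exonic bases with the abundant MRPL9 on the other strand. HDAC10, a polyamine deacetylase, had 5, 3 and 4 counts in curcumol libraries and 23, 22 and 22 in control libraries, and shares 2763 exonic bases with MAPK12 on the same strand, so its value of -2.17, or -1.37 with a GC offset, is uncertain. AZIN2, the paralogue of AZIN1 and named after its value was seen, did not pass (-0.31, edgeR adjusted p = 0.102), and it passed with library totals.

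Of the transcription factors listed, MYC, known to activate ODC1 and SRM, averaged 41.0 ± 4.33 CPM in curcumol and 186 ± 4.31 CPM in control (SD, n = 3 each), a log2 change of -2.19 ± 0.07 (SE, edgeR adjusted p = 1.29e-16). Its partner MAX rose by 1.19 ± 0.06. NFE2L2, which encodes NRF2, a reported activator of SAT1, rose by 1.22 ± 0.08. MYC moved in the direction of SRM and against that of ODC1, and whether it acts on either gene here was not tested.

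Renal epithelial markers were present, and 7 of the 8 tested were lower in curcumol, where 40.3% of all tested genes were. The summed level of the 9 markers ran from 2142 to 2507 CPM in curcumol and from 3306 to 3534 CPM in control, and CDH6 held 1 count in all. Leukocyte markers summed to 1.73 to 2.46 CPM in curcumol and 0 to 0.161 CPM in control, with CD3E at 0. Most of the sum was CD79A, called higher, with 18, 19 and 24 counts in curcumol libraries and 1, 0 and 0 in control libraries. PTPRC, CD68 and LYZ were also higher in curcumol, at no more than 8 counts a library. Endothelial markers summed to 0.128 to 0.821 CPM in curcumol and 0.0516 to 0.155 CPM in control. Fibroblast markers summed to 7.62 to 17.6 CPM in curcumol and 7.07 to 8.29 CPM in control. Members of that list went both ways. COL3A1 had 28, 58 and 23 counts in curcumol libraries and 0 in each control library, PDGFRB rose, with 77, 123 and 80 counts in curcumol libraries and 54, 45 and 43 in control libraries, and COL1A1 changed by -1.14 on the log2 scale. LUM and DCN had 22 and 11 counts in curcumol replicate 2 and 0 in the other curcumol libraries. Without that library SAT1 stood at 3.06 and SRM at -2.69. In bulk RNA fewer cells of a type and less RNA per cell cannot be told apart.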

How the data were processed

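Poly(A) RNA-seq counts of 6 ACHN libraries were used, 3 treated with curcumol and 3 controls, grouped by their titles. The authors deposited 1 table of raw counts per Ensembl gene. The build is GRCh38, per the submitters' processing notes, and no aligner, counter or strand setting is named in the labels or file. All 58735 identifiers match GENCODE 29, which gave coordinates, exon lengths and the GC content of the longest transcript. Promoters are RefSeq windows of GRCh38.p14.

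Genes were filtered with filterByExpr (15160 kept), scaled by TMM and tested in edgeR 4.0.16 (R 4.3.3, robust quasi-likelihood F test, Benjamini-Hochberg over all tested genes, threshold 0.05). SE was obtained as the size of the log2 fold change over the square root of F. Code was tested on simulated data. Members and lists were chosen with earlier results of these data known. Named were all members and, of each list, the first gene and those past 2-fold that passed. Other list genes are said to be named after their values were seen. Library totals ran from 16962012 to 17827433, and replicates correlated at 0.988 to 0.992 in log2 CPM and differed by more than counting error (chi-square over its degrees of freedom was 2.78 to 5.65). With 3 libraries a group, their number limits precision for abundant genes. Alternatives were DESeq2 1.42.0, limma-voom (3.58.1), other scalings, filters, offsets, a replicate block and leaving out each library.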

Additional observations from a re-analysis of the deposited data

How the results depend on the processing

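The counts of 7 higher and 3 lower polyamine genes were the same in all 16 alternatives. Over all genes, 4818 were higher and 7372 lower with library totals, which moved the median log2 fold change of all genes to -0.28, and 5967 and 6109 with TMM. The same-numbered curcumol and control libraries deviated together by correlations of 0.02, -0.01 and 0.08. These values are small, but they cannot exclude a pairing by number. With the replicate block 5955 genes were higher and 6131 lower, and the block changed no member's call. It made the SE smaller for each member except PAOX. Added to the GC offset, however, the block made the SE larger for each member except SMS. Some genes around the pathway changed direction, and the cause was not tested. ENOPH1 (0.22) stood at -0.048 with library totals and at -0.046 with the GC offset, with and without the replicate block. MAT2B (0.52) stood at -0.14 with the GC offset, with and without the replicate block, and EIF5A (-0.16) at 0.30 in both. MAT2B was called higher without the offset (edgeR adjusted p = 2.45e-06) and lower with it (edgeR adjusted p = 0.0259). EIF5A was called lower without the offset and higher with it. ENOPH1 and MAT2B were named after their values were seen. DHPS (0.04) stood at -0.22 with library totals, at -0.0052 with no filter, and between -0.23 and 0.32 when 1 library was left out. EIF5A lost its call with DESeq2 (DESeq2 adjusted p = 0.0746), with DESeq2-type size factors (edgeR adjusted p = 0.0609) and without curcumol replicate 2 or 3 or control replicate 1 or 2. Low counts limit PAOX, HDAC10, OAZ3, DHPS and ARG2.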

Other observations

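MTAP lies in a run of genes with almost no counts, a pattern looked for after MTAP was seen at 0. From MLLT3 to MTAP (chromosome 9, 20341665 to 21937651, GRCh38) there are 21 annotated protein-coding genes, 16 of them interferon genes that many cells do not express, and together they held 2 counts over the 6 libraries. MLLT3 and FOCAD had 0 counts in every library, and HACD4 and KLHL9 had 1 count each, in curcumol replicate 2. Several genes on either side were counted in all libraries, while AL359922.1, which overlaps MTAP and reaches past it, had 0 counts in each. On one side RPS6 had 32341, 33118 and 30896 counts in curcumol libraries and 17095, 17385 and 20393 in control libraries. On the other, CDKN2B, an inhibitor of cell cycle kinases, had 418, 366 and 438 counts in curcumol libraries and 83, 109 and 120 in control libraries. CDKN2A, between MTAP and CDKN2B, had 3, 3 and 3 counts in curcumol libraries and 11, 13 and 12 in control libraries. The state of the DNA there was not analysed here.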
